A study of Mus musculus with 6 samples.

Results

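The genes of the mouse major histocompatibility complex (MHC) and of antigen processing were taken from liver RNA-seq counts as every row whose symbol starts with H2- plus Cd74, Ciita, B2m, Tap1, Tap2 and Tapbp. That rule found 50 of 24982 gene rows, and 33 of them had 10 or more counts summed over all libraries and are described here. They comprised 3 classical class I genes, 14 non-classical class I genes, 4 genes of the class I pathway, 4 classical class II genes, 7 class II accessory genes and H2-Ke6, a hydroxysteroid dehydrogenase that carries an H2- symbol only because it lies in the same region. The livers came from male C57BL/6NJ mice, 3 samples on a high fat - high sugar diet (a high fat diet plus sugar water) and 3 on a chow diet, each for 54 weeks per the series text. The series was made to model inflamed fatty liver that progresses to cancer, and no label tells whether a sample held tumour.

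Class I molecules are found on nearly all nucleated cells and show peptides from inside the cell to CD8 T cells. Their heavy chain pairs with the light chain β2-microglobulin (B2m), and the transporter Tap1-Tap2 and tapasin (Tapbp) load the peptide. Class II molecules belong mainly to macrophages, dendritic cells and B cells, pair an alpha with a beta chain, are held by the invariant chain Cd74 until they reach endosomes, and receive their peptide through H-2M (DM), which H-2O (DO) restrains. The transactivator Ciita switches class II genes on together through paired X and Y boxes in their promoters. Hepatocytes normally carry class I and little or no class II.

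The promoters are shown because most tested class II genes rose together, whereas no abundant class I gene passed the test of diet. H2-Q10, an abundant class I gene, was lower in every high fat - high sugar library without passing. The RefSeq promoter table (GRCm38.p6, the same assembly as mm10) held 35 of the 50 rows, each promoter running from 250 bases before to 50 after the start. Capitals mark the X box letters CTNGNAAC and the Y box core GATTGG, searched on both strands. The X box letters were chosen after these promoters had been read. The windows are H2-Aa at chr17:34287774-34288073 on the minus strand, H2-Eb1 at chr17:34305617-34305916, H2-DMb1 at chr17:34152941-34153240 and H2-Ob at chr17:34238655-34238954, these 3 on the plus strand.
H2-Aa: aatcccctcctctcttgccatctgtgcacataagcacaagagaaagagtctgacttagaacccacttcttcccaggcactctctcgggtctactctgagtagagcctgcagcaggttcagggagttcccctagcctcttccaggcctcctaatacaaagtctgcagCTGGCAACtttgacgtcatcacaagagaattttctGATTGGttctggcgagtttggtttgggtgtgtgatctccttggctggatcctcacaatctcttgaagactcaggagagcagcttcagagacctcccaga
H2-Eb1: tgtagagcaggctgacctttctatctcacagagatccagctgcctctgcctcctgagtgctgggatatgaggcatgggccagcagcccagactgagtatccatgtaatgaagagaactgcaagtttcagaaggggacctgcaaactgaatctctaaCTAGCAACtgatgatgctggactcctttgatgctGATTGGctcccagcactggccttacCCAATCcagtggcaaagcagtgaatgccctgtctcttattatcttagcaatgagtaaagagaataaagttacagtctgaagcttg
H2-DMb1: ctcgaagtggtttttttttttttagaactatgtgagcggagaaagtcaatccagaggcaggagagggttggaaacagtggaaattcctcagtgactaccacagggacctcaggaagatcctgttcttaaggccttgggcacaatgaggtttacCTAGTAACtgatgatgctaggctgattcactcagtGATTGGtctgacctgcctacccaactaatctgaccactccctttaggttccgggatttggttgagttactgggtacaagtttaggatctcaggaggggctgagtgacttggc
H2-Ob: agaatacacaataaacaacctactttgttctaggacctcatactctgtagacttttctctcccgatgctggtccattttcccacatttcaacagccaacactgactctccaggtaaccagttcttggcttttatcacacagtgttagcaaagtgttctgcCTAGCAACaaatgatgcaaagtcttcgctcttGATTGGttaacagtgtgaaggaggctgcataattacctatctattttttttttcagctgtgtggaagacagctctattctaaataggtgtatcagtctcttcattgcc
In all 4 windows the X box letters stood before the Y box core on the same strand, with a gap of 27 bases in H2-Aa, 26 in H2-Eb1, 27 in H2-DMb1 and 24 in H2-Ob. That order with a gap of at most 30 bases was found in 0.128% of all 32851 promoters, and among the members in these 4 alone. The pair did not mark the class II genes that rose: H2-Ob holds it and did not pass the test of diet, while H2-DMa lacks it and rose. H2-DMa, H2-DMb2 and H2-Oa held GATTGG without CTNGNAAC, and H2-Eb2 held both without that order and gap. The promoter of H2-Ab1 was not listed. Alone, GATTGG was found in 16.1% of all promoters and in 28 of the 35 member promoters, H2-K1, H2-D1 and B2m among them, and CTNGNAAC in 13.2% of all and 11 of the 35. Such a match describes the letters only.

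For class I, capitals mark the κB letters GGGGATTCCCC and the interferon response letters CAGTTTCNNTTCT, both read from the H2-D1 promoter itself and searched on both strands. H2-D1 is at chr17:35262844-35263143 and H2-Q10 at chr17:35469839-35470138, both on the plus strand.
H2-D1: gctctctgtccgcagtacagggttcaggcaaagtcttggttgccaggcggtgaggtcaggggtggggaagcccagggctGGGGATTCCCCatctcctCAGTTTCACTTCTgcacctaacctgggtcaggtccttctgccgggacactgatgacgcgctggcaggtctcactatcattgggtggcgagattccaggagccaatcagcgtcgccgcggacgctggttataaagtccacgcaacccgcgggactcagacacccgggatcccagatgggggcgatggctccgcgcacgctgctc
H2-Q10: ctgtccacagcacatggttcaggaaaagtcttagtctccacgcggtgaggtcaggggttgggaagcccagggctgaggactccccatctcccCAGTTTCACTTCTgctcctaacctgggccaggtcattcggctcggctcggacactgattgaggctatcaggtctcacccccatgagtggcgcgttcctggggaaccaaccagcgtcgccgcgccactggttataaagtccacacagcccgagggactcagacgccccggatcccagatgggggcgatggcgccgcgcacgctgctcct
The κB letters were found in 0.0304% of all promoters, and among members in H2-D1, H2-K1 and H2-Q6. The interferon response letters were found in 0.116% of all promoters, and among members in H2-D1, H2-K1, H2-Q10, H2-Q4, H2-Q6 and H2-Q7. Over the κB stretch, with positions counted from 1 at its 5′ end, H2-Q10 differed from H2-D1 by G2A and T6C.

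Depth was 17647882 to 20585366 gene counts in the high fat - high sugar libraries and 16565335 to 20005873 in the chow libraries. Albumin, the defining hepatocyte transcript, stood at 24157 to 71043 CPM (read counts scaled for library depth) on the high fat - high sugar diet and at 69082.5 to 89640.1 CPM on chow. High fat - high sugar replicate 2 stood apart, with the lowest albumin and with Pearson correlations over genes of 0.961 and 0.957 with replicates 1 and 3 of its diet, against 0.982 between those. The effect of diet was tested over 12949 genes by the quasi-likelihood method of edgeR at a Benjamini-Hochberg adjusted p of 0.05. 

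Among the 29 members that passed the filter on low counts, 10 rose (34.5%) and 1 fell (3.45%) on the high fat - high sugar diet, against 11.0% higher and 3.61% lower among all tested genes. The rises were 3 of 3 tested classical class II genes, 4 of 5 class II accessory genes and 3 of 14 non-classical class I genes. Of the last, H2-M2 and H2-Q2 passed the filter only through the libraries of the diet on which they are high. None of the 2 tested classical class I genes or the 4 class I pathway genes passed the test (edgeR, with 0 of these 6 at an unadjusted p under 0.05, and 0 with DESeq2 or limma-voom). The median log2 fold change was 2.56 over the 8 tested class II members, 0.36 over the 20 tested members of class I and its pathway, and -0.02 over all tested genes. Every high fat - high sugar library lay above every chow library for 13 of the 29 members and below for 2, against 21.5% and 18.0% of all tested genes, so that the diets did not overlap for 51.7% of members and 39.5% of all tested genes. Of the 10 that rose, 9 had their highest value in replicate 2 of the high fat - high sugar diet, and all 10 had their highest chow value in chow replicate 1. In bulk liver, more cells of a type and more RNA per cell cannot be told apart.

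The calls were also counted under other tests, scalings and sets of libraries, each beside its own share of all tested genes. DESeq2 called 11 members higher and 1 lower (12.9% and 6.95% of all genes), and limma-voom 8 and 1 (7.66% and 2.86%), without Ciita and H2-M2. RLE scaling gave 10 and 1 (10.9% and 3.86%), upper-quartile scaling 10 and 1 (12.7% and 2.53%), library-size scaling 10 and 0 (14.9% and 1.54%) and a filter of 10 summed counts 10 and 1 (9.47% and 3.24%). With no filter on low counts 5 rose and 1 fell (8.17% and 2.83%), because H2-Aa, H2-Ab1, H2-Eb1, H2-DMa and Ciita missed the threshold with edgeR adjusted p from 0.0505 to 0.0687. With the replicate number as a block 3 rose, 0 of them class II, and 0 fell (7.42% and 2.18%; edgeR, with 15 higher at an unadjusted p under 0.05). Without high fat - high sugar replicate 1, 8 rose and 0 fell (9.02% and 2.23%), without replicate 2 of that diet 10 and 0 (9.42% and 3.01%), and without replicate 3 of it 11 and 1 (12.6% and 5.83%). Without chow replicate 1, 9 rose and 0 fell (5.73% and 1.33%). Without chow replicate 2 or 3, 0 members rose or fell (2.60% and 0.850% without replicate 2, 0.0301% and 0.0150% without replicate 3; edgeR, with 13 and 12 members higher at an unadjusted p under 0.05).

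**Figure D1:**
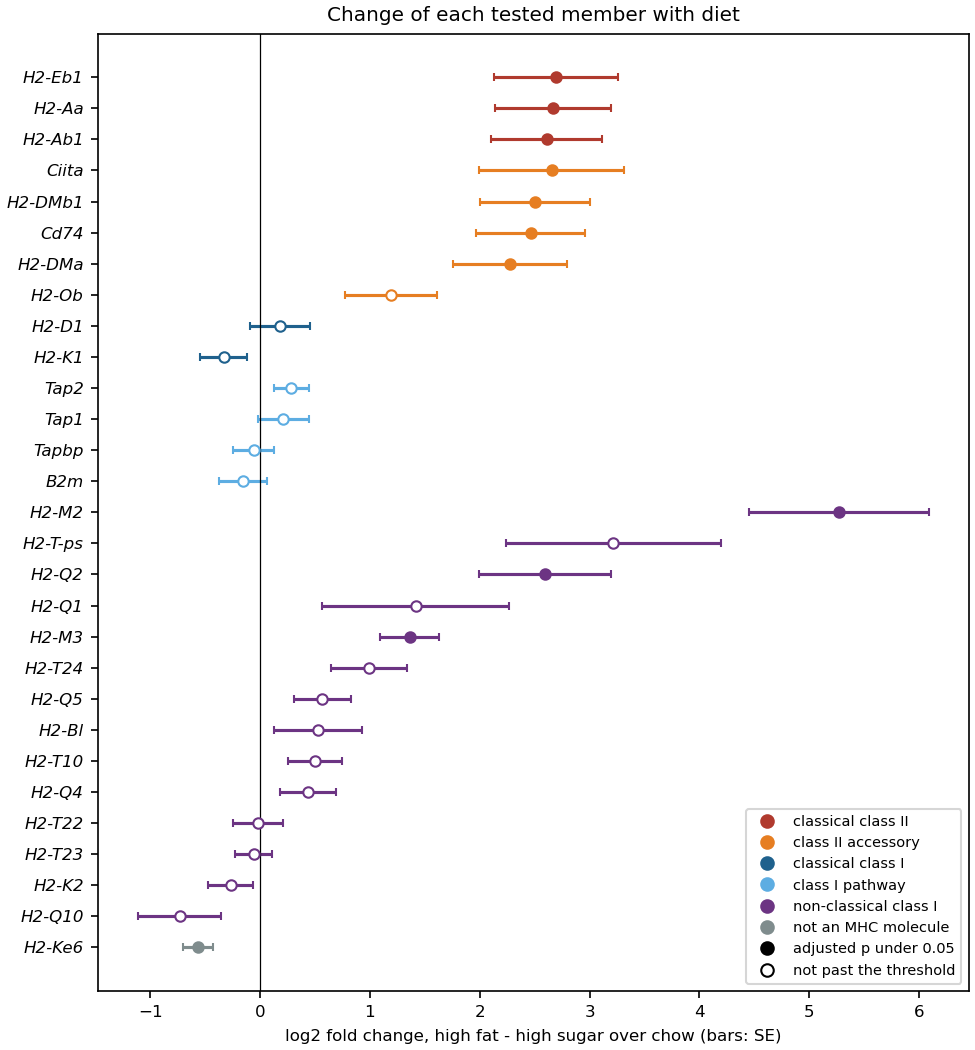
Log2 fold change of each tested member, high fat - high sugar over chow, with its standard error as bars. Filled points passed an adjusted p of 0.05. The class II genes other than H2-Ob lie between 2.27 and 2.70, the classical class I and pathway genes between -0.33 and 0.29, and the non-classical genes spread from -0.73 to 5.27.

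The 3 expressed chains of the class II molecules I-A and I-E rose, with log2 fold changes from 2.61 to 2.70. H2-Aa, the I-A alpha chain (chromosome 17, 34282744 to 34287823), had 108, 295 and 105 CPM in high fat - high sugar replicates 1, 2 and 3, against 41.1, 19.3 and 19.5 CPM in chow replicates 1, 2 and 3. H2-Ab1, the I-A beta chain (chromosome 17, 34263227 to 34269418), had 82.1, 212 and 79.1 CPM on the high fat - high sugar diet, against 31.1, 15.9 and 14.1 CPM on chow. For both genes every high fat - high sugar library lay above every chow library, replicate 2 was the highest on that diet, and chow replicate 1 was the highest on chow. The log2 fold changes were 2.67 ± 0.53 for H2-Aa and 2.61 ± 0.51 for H2-Ab1 (SE), with edgeR adjusted p = 0.0237 and 0.0225. H2-Eb1, the I-E beta chain (chromosome 17, 34305867 to 34316674), had 85.9, 228 and 76.7 CPM on the high fat - high sugar diet, against 32.4, 13.2 and 14.7 CPM on chow, a log2 fold change of 2.70 ± 0.57 (SE; edgeR adjusted p = 0.0279). Its partner chain is disrupted in C57BL/6 mice, and the row of that pseudogene, H2-Ea-ps, had 0 counts in all 6 libraries, which allows up to 0.115 to 0.167 CPM on the high fat - high sugar diet and 0.165 to 0.202 CPM on chow at 3 counts a library. H2-Eb2, a second beta chain gene, had 10, 33 and 0 counts on the high fat - high sugar diet, against 3, 1 and 1 on chow, and was too low to test. Without high fat - high sugar replicate 2 the log2 fold changes of H2-Aa, H2-Ab1 and H2-Eb1 were 2.01, 1.99 and 2.03 and each still passed (edgeR). Without chow replicate 2 or 3 none of the 3 passed, with edgeR adjusted p between 0.0749 and 0.108.

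The genes that load and switch on class II rose beside the chains. Cd74, the invariant chain (chromosome 18, 60803849 to 60812652), was the most abundant class II member in CPM, with 227, 536 and 188 CPM on the high fat - high sugar diet, against 87.3, 41.8 and 43.3 CPM on chow. Its log2 fold change was 2.46 ± 0.50 (SE; edgeR adjusted p = 0.0237). Ciita, the class II transactivator (chromosome 16, 10480014 to 10531064), had 6.35, 17.9 and 3.85 CPM on the high fat - high sugar diet, against 2.39, 1.04 and 1.01 CPM on chow. The diets did not overlap for either gene, and Ciita rose by 2.65 ± 0.66 on the log2 scale (SE; edgeR adjusted p = 0.0414). Ciita lost its call without high fat - high sugar replicate 1 (adjusted p = 0.0516) or chow replicate 1 (0.0619), and its log2 fold change was 1.78 without high fat - high sugar replicate 2, still past the threshold. That of Cd74 was 1.87 without the same library and also passed. Without chow replicate 2 or 3 neither passed, with edgeR adjusted p of 0.0767 and 0.0973 for Cd74 and 0.122 and 0.148 for Ciita.

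H-2M, which exchanges peptides on class II, rose in both of its tested chains. H2-DMa, its alpha chain (chromosome 17, 34119693 to 34139101), had 9.03, 21.9 and 9.88 CPM on the high fat - high sugar diet, against 4.67, 1.43 and 2.36 CPM on chow, and rose by 2.27 ± 0.52 (SE; edgeR adjusted p = 0.0321). H2-DMb1, its beta chain (chromosome 17, 34153191 to 34160229), had 9.96, 23.7 and 10.2 CPM, against 4.22, 1.70 and 1.75 CPM on chow, and rose by 2.51 ± 0.50 (SE; edgeR adjusted p = 0.0218). Neither passed without chow replicate 2 or 3 (edgeR adjusted p from 0.0750 to 0.127). A second beta chain gene, H2-DMb2, shares 21.2% of its 50-base words with H2-DMb1, so the split of reads between them is uncertain. It had 10, 30 and 9 counts on the high fat - high sugar diet, against 1, 4 and 3 on chow. When genes of 10 summed counts were let in, H2-DMb2 missed the threshold (2.15 ± 0.63 (SE); edgeR adjusted p = 0.0596).

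H-2O, which restrains H-2M and is known mainly from B cells, did not pass. H2-Ob, its beta chain (chromosome 17, 34238905 to 34245908), had 1.96, 3.35 and 1.45 CPM on the high fat - high sugar diet, against 1.39, 0.769 and 0.808 CPM on chow. The diets did not overlap, though the lowest high fat - high sugar library and chow replicate 1 were close, and the log2 fold change was 1.19 ± 0.42 (SE; edgeR adjusted p = 0.0932). H2-Oa, the alpha chain, had 8, 24 and 3 counts on the high fat - high sugar diet, against 4, 3 and 2 on chow, and the diets overlapped once scaled for depth.

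**Figure D2:**
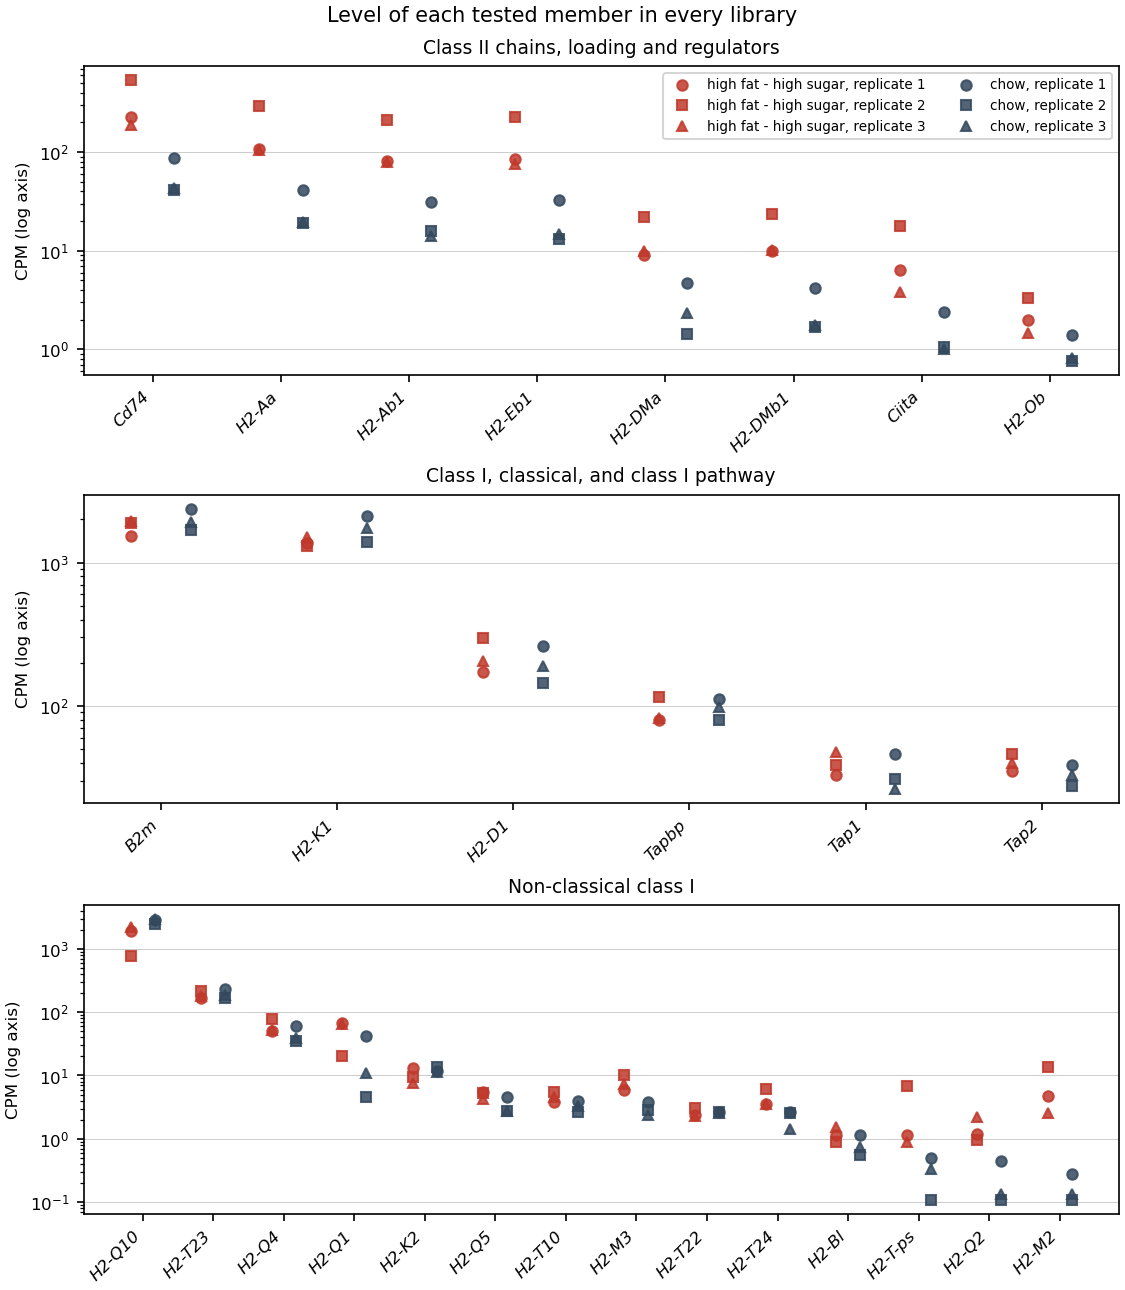
CPM of each of the 28 tested members that belong to the MHC or its pathways, on a log axis, with each library as a point and the high fat - high sugar libraries left of the chow libraries. The class II genes separate by diet, with high fat - high sugar replicate 2 on top, whereas the diets overlap for all 6 genes of the middle panel.

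Ratios of raw counts inside a library depend on neither depth nor scaling, and they showed how evenly the class II genes moved. These ratios were picked after the counts were seen and are a description. There were 1.32, 1.39 and 1.32 H2-Aa counts per H2-Ab1 count in the high fat - high sugar libraries, against 1.32, 1.21 and 1.38 in the chow libraries. Cd74 stood at 2.77, 2.53 and 2.38 counts per H2-Ab1 count, against 2.81, 2.63 and 3.07 on chow. The diets overlapped in both ratios, and in those of H2-Eb1 to H2-Ab1 (0.970 to 1.08 on the high fat - high sugar diet and 0.830 to 1.04 on chow) and of Ciita to H2-Ab1 (0.0487 to 0.0845, and 0.0657 to 0.0769). H2-DMa relative to H2-Ob differed, with 4.61, 6.55 and 6.81 counts per H2-Ob count on the high fat - high sugar diet, against 3.36, 1.86 and 2.92 on chow. H2-Ob stood at 0.0239, 0.0158 and 0.0184 counts per H2-Ab1 count on the high fat - high sugar diet, below the 0.0447, 0.0484 and 0.0571 on chow. H2-Ob rests on 12 to 25 counts in each chow library, so counting error is large in its ratios.

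**Figure D3:**
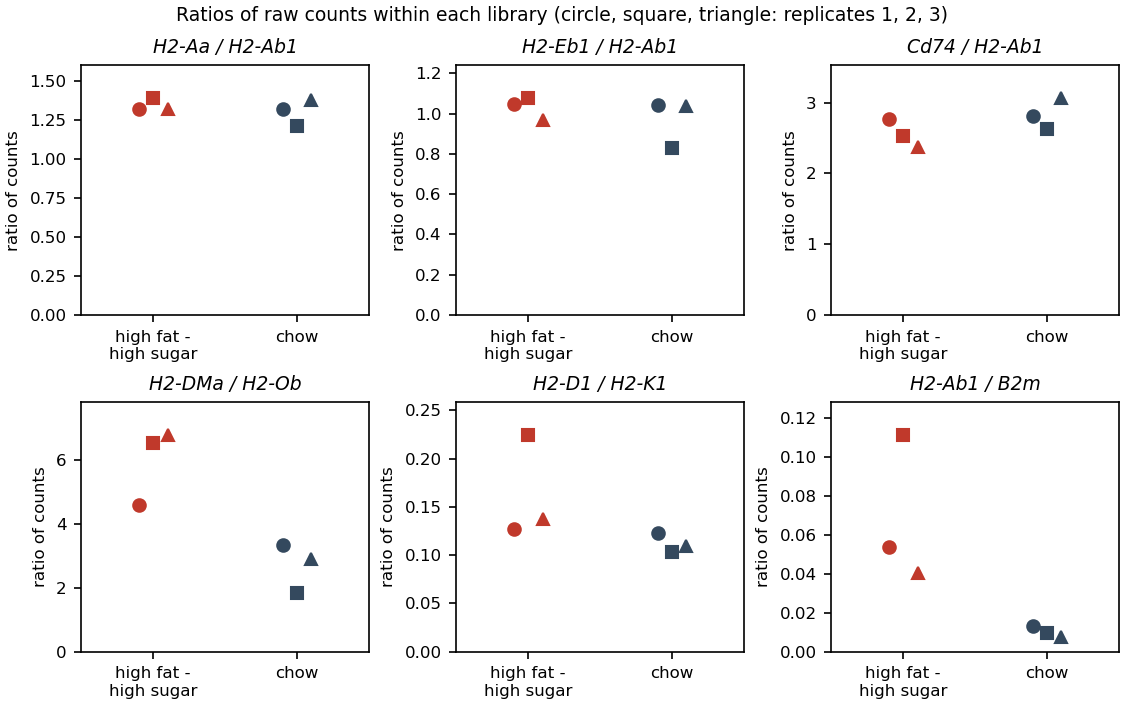
Ratios of raw counts of gene pairs within each library, with high fat - high sugar left of chow and replicates 1, 2 and 3 as circle, square and triangle, on axes from 0. The 3 class II ratios of the upper row overlap between the diets, while H2-DMa to H2-Ob, H2-D1 to H2-K1 and H2-Ab1 to B2m are higher in every high fat - high sugar library.

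A pan-leukocyte and a macrophage marker rose beside the class II genes. Summed over the 11 class II members, the level was 533, 1342 and 474 CPM on the high fat - high sugar diet, against 205, 95.5 and 98.0 CPM on chow. Ptprc, the pan-leukocyte marker CD45, had 34.9, 72.1 and 28.6 CPM, against 12.1, 6.87 and 11.0 CPM on chow, and rose by 2.18 ± 0.40 (SE; edgeR adjusted p = 0.0192). Adgre1, the macrophage marker F4/80, had 62.0, 76.7 and 52.4 CPM, against 17.1, 11.2 and 13.0 CPM on chow, and rose by 2.21 ± 0.20 (SE; edgeR adjusted p = 0.00754). Ptprc did not pass with the replicate number as a block or without chow replicate 2 or 3, nor Adgre1 without chow replicate 3. The class II sum, Ptprc and Adgre1 were all at their highest in replicate 2 of the high fat - high sugar diet. There were 1.32, 2.76 and 1.51 H2-Ab1 counts per Adgre1 count on the high fat - high sugar diet, against 1.81, 1.42 and 1.09 on chow, and 2.35, 2.94 and 2.77 per Ptprc count, against 2.56, 2.31 and 1.28, so that the diets overlapped in both.

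Among all tested genes 11.0% rose and 3.61% fell, the shares beside which the marker lists stand. Macrophage and Kupffer cell markers rose in 7 of 10 tested genes (Adgre1, Csf1r and Clec4f with the smallest p) and fell in 1, Marco, with a summed level of 859 to 1609 CPM on the high fat - high sugar diet and 294 to 406 CPM on chow. Dendritic cell markers rose in 4 of 7 tested genes (Flt3, Itgax, Xcr1 and Clec9a) of 10 listed, with 24.3 to 60.5 CPM against 7.58 to 12.6 CPM. Itgax, which macrophages also express, had 11.3, 37.1 and 8.99 CPM on the high fat - high sugar diet, against 1.61, 0.660 and 1.82 CPM on chow. B cell markers rose in 1 of 7, Cd22, a count near the 11.0% of all tested genes, with 9.44 to 19.2 CPM against 5.06 to 5.92 CPM, and neither Ms4a1 nor Blk passed. Among T and NK cell markers, Ncr1 of NK cells rose, the 1 call among 5 tested of 9 listed, with 5.37 to 12.5 CPM against 1.88 to 6.00 CPM, while Klrb1c and Cd8a did not pass. Neutrophil markers (S100a8, S100a9 and Csf3r) gave 0 calls among 3 tested of 5 listed (edgeR, with all 3 at an unadjusted p under 0.05), with 10.6 to 38.7 CPM against 2.29 to 7.95 CPM. Liver endothelial markers rose in 4 of 6 (228 to 294 CPM against 152 to 192 CPM), including Lyve1, Pecam1 and Cdh5, and cholangiocyte markers in 4 of 5 (9.27 to 23.8 CPM against 4.22 to 8.74 CPM), including Cftr, Epcam and Krt7. Hepatocyte markers, led by Ttr, Tat and Cyp2e1, gave 0 calls among 6 (edgeR, 2 at an unadjusted p under 0.05), with 38219 to 91217 CPM against 95462 to 120339 CPM. No listed marker was at 0 in all libraries. Flt3, Xcr1, Ncr1, Cftr, Krt7 and Krt19 passed the filter on low counts only through the high fat - high sugar libraries. Their chow levels reached at most 0.404, 0.538, 0.167, 0.0673, 0.667 and 0.611 CPM. By DESeq2, 4 of 5 neutrophil markers and 2 of 9 T and NK markers rose and 2 of 6 hepatocyte markers fell, against 12.9% higher and 6.95% lower of all genes it tested. By limma-voom 1 of 7 dendritic markers rose, against 7.66% of all tested genes. Library-size scaling gave 2 rises in the B cell list, 2 in the T and NK list and 1 in the neutrophil list (14.9% of all tested genes), and upper-quartile scaling 2 in the T and NK list (12.7%). RLE scaling gave 1 fall in the hepatocyte list (3.86%). With the replicate number as a block, 6 macrophage, 1 dendritic, 3 endothelial and 3 cholangiocyte markers rose, against 7.42% of all tested genes. At an unadjusted p under 0.05, 8, 5, 4 and 4 of these lists were higher (edgeR).

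These list counts also moved with single libraries, and Marco lost its call without chow replicate 3 or without replicate 2 of the high fat - high sugar diet. Without chow replicate 2, when 2.60% of all tested genes rose, 4 macrophage, 4 endothelial and 1 cholangiocyte markers rose and no call was left in Ptprc or the dendritic, B, T and NK lists (edgeR, with 5 dendritic, 3 B, and 2 T and NK markers higher at an unadjusted p under 0.05). Without chow replicate 3, when 0.0301% of all tested genes rose, 0 markers of any list rose (edgeR, 8 macrophage, 5 dendritic, 4 endothelial and 4 cholangiocyte markers higher at an unadjusted p under 0.05). Dendritic markers rose in 1 gene without chow replicate 1 and in 2 without replicate 2 of the high fat - high sugar diet, endothelial markers in 2 without chow replicate 1 or without replicate 1 of the high fat - high sugar diet, and cholangiocyte markers in 2 without chow replicate 1. T and NK markers rose in 2 genes without chow replicate 1, 1 neutrophil marker rose without that library or without replicate 3 of the high fat - high sugar diet, and 1 hepatocyte marker fell whenever 1 high fat - high sugar library was left out. The part of these cell types in the class II result was not tested.

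**Figure D4:**
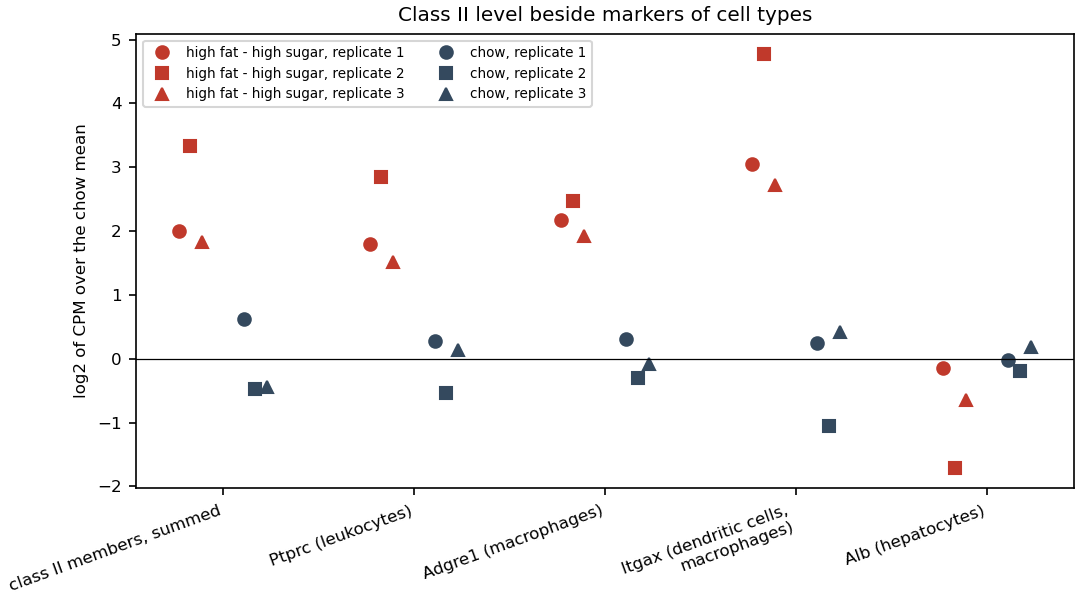
Log2 of each library's CPM over the chow mean for the summed class II members and for 4 markers, with the high fat - high sugar libraries left of the chow libraries. The class II sum lies at 1.84 to 3.34 on the high fat - high sugar diet, near Ptprc (1.51 to 2.85) and Adgre1 (1.93 to 2.48). Itgax lies higher on that diet, at 2.72 to 4.77, while the 2 diets overlap for albumin.

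Other genes of class II processing rose in 6 of 12 tested, against 11.0% of all tested genes. They were Ctss, the endosomal protease that trims the invariant chain (117, 294 and 111 CPM on the high fat - high sugar diet, against 42.7, 26.6 and 28.7 CPM on chow), the asparaginyl endopeptidase Lgmn, the ubiquitin ligase March1 that removes class II from the surface, and the costimulatory genes Cd86, Cd80 and Cd40. Their log2 fold changes were 2.41 for Ctss, 1.61 for Lgmn, 2.14 for March1, 1.77 for Cd86, 1.83 for Cd80 and 1.91 for Cd40. Of these, Cd80 and Cd40 passed the filter on low counts only through the high fat - high sugar libraries. On chow they had at most 0.556 and 0.723 CPM. Ifi30, a thiol reductase of endosomes, was at 0.94 ± 0.35 (SE) and did not pass (edgeR adjusted p = 0.115). Without chow replicate 2 or 3 the rises came to 1 and 0, against 2.60% and 0.0301% of all tested genes (edgeR, 6 higher at an unadjusted p under 0.05 in each case). With the replicate number as a block 3 of the 12 rose, against 7.42% of all tested genes (edgeR, 7 higher at an unadjusted p under 0.05). Regulators of MHC genes rose in 4 of 16 tested (2 by limma-voom), against the same 11.0% (7.66% by limma-voom), namely the interferon gamma receptor chain Ifngr1 (1.07), the myeloid factors Spi1 (1.79) and Irf8 (1.42), and the Y box binding subunit Nfya (0.60). The other Y box binding subunits, Nfyb (-0.29) and Nfyc (-0.02), did not pass, nor did the X box binding subunits Rfxap (-0.24) and Rfxank (0.03). Rfx5, an X box binding subunit, had 14.3, 21.7 and 14.9 CPM on the high fat - high sugar diet, against 13.0, 15.0 and 14.7 CPM on chow (log2 fold change 0.26 ± 0.18 (SE); edgeR adjusted p = 0.368). Ifng had 0 counts in all 3 high fat - high sugar libraries and at most 0.167 CPM on chow, which is at or under the level of 3 counts, and was too low to test. No regulator passed without chow replicate 1, 2 or 3, when 5.73%, 2.60% and 0.0301% of all tested genes rose (edgeR, with 5, 4 and 4 higher at an unadjusted p under 0.05). With the replicate block 1 regulator rose, against 7.42% of all tested genes (edgeR, 5 higher at an unadjusted p under 0.05).

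Classical class I genes and their pathway did not pass the test in either direction. H2-K1 (chromosome 17, 33996012 to 34000619) had 1360.3, 1315 and 1502 CPM on the high fat - high sugar diet, against 2109.6, 1400.0 and 1745 CPM on chow. H2-D1 (chromosome 17, 35263094 to 35267497) had 173, 296 and 207 CPM, against 259.5, 145 and 191 CPM on chow. The diets overlapped for both, with log2 fold changes of -0.33 ± 0.21 for H2-K1 and 0.18 ± 0.27 for H2-D1 (SE; edgeR adjusted p = 0.321 and 0.682). The value for H2-D1 was -0.05 when replicate 2 of the high fat - high sugar diet was left out, and the sign also turned without chow replicate 2. Relative to H2-K1, H2-D1 stood at 0.127, 0.225 and 0.138 counts per count on the high fat - high sugar diet, above 0.123, 0.104 and 0.109 on chow, a narrow gap between high fat - high sugar replicate 1 and chow replicate 1. H2-L, which C57BL/6 mice are known to lack, had 1, 7 and 1 counts on the high fat - high sugar diet, against 4, 3 and 0 on chow.

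B2m (chromosome 2, 122147687 to 122153082) had 1529, 1900.1 and 1947 CPM on the high fat - high sugar diet, against 2381, 1687 and 1911 CPM on chow (log2 fold change -0.15 ± 0.22 (SE); edgeR adjusted p = 0.665), and its sign turned under library-size scaling (0.12). Tap1 had 32.7, 38.8 and 47.7 CPM, against 46.0, 30.6 and 26.2 CPM on chow, and Tap2 had 34.7, 45.9 and 39.9 CPM, against 38.4, 27.5 and 33.0 CPM. Tapbp, tapasin, had 79.7, 116 and 82.0 CPM, against 112, 79.6 and 97.4 CPM, so that the diets overlapped for all 4 genes of the pathway. Of 14 other class I processing genes, 0 passed in either direction (edgeR, with 0 at an unadjusted p under 0.05). They included Psme1, Psme2 and Psme3, with the smallest p, the immunoproteasome genes Psmb8 (0.07 ± 0.28) and Psmb9 (0.13 ± 0.37), and Nlrc5, the class I transactivator, at 28.1, 39.5 and 30.1 CPM on the high fat - high sugar diet, against 40.5, 27.4 and 29.5 CPM on chow (0.01 ± 0.19 on the log2 scale, SE).

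The classical class II to class I heavy chain ratio of summed counts was 0.0736, 0.268 and 0.0609 in the high fat - high sugar libraries, against 0.0189, 0.0115 and 0.00948 in the chow libraries. Class II chains therefore made up 6.86%, 21.1% and 5.74% of class I and class II chain counts on the high fat - high sugar diet, against 1.86%, 1.14% and 0.939% on chow, without overlap. Per kilobase of the longest annotated transcript, Cd74 averaged 225 ± 135 CPM on the high fat - high sugar diet and 40.8 ± 18.3 CPM on chow (SD, n = 3 each), while H2-D1 averaged 107 ± 30.2 and 94.5 ± 27.4 CPM per kilobase. Cd74 was thus the fourth most abundant member per length on the high fat - high sugar diet and the seventh on chow, with B2m, at 2084 ± 266 and 2317 ± 411 CPM per kilobase, first on both.

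Non-classical class I genes moved singly, with 3 rises and 11 tested genes not past the threshold. The rises were 21.4% of the class, against 11.0% of all tested genes, and so few calls say little about the class as a whole. H2-M2 (chromosome 17, 37480851 to 37483554) had 93, 353 and 46 counts in the high fat - high sugar libraries, against 5, 2 and 2 in the chow libraries, or 4.80, 13.6 and 2.57 CPM against 0.278, 0.110 and 0.135 CPM. Its log2 fold change of 5.27 ± 0.82 (SE; edgeR adjusted p = 0.0130) was the highest of all tested members, rested on 9 chow counts, and was 4.35 without high fat - high sugar replicate 2. H2-M2 missed the threshold with limma-voom (adjusted p = 0.0554). H2-M2 shares 1.61% of its 50-base words with other genes, so its reads are nearly all its own. H2-M3, which presents formylated peptides of bacteria and mitochondria (chromosome 17, 37270234 to 37274485), had 5.99, 9.9999 and 7.31 CPM, against 3.84, 2.86 and 2.36 CPM on chow, and rose by 1.36 ± 0.27 (SE; edgeR adjusted p = 0.0199). H2-Q2 (chromosome 17, 35342307 to 35346764) had 1.19, 0.962 and 2.23 CPM, against 0.445, 0.110 and 0.135 CPM on chow, and rose by 2.60 ± 0.60 (SE; edgeR adjusted p = 0.0298). H2-Q2 was the 1 riser not led by high fat - high sugar replicate 2, rested on 2 to 8 counts in each chow library, and lost its call without high fat - high sugar replicate 1 or 3 (edgeR adjusted p = 0.0516 and 0.0531). The log2 fold change of H2-Q2 was 3.50 without chow replicate 1. H2-Q2 shares 16.1% of its 50-base words with other genes and 12.85% with H2-Q1, so its split of reads is uncertain. Summed over all libraries, H2-Q1 had 4003 counts and H2-Q2 100. H2-M2 and H2-Q2 were under 10 counts in every chow library, so they passed the filter on low counts only through the high fat - high sugar libraries. All 3 also lost their calls without chow replicate 2 or 3, with edgeR adjusted p between 0.0563 and 0.118.

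Of the other non-classical genes, H2-T-ps and H2-T24 came close to the threshold without passing it, and H2-Q1 and H2-T23 overlapped between the diets. H2-T-ps had 22, 175 and 16 counts on the high fat - high sugar diet, against 9, 2 and 5 on chow, without overlap (3.22 ± 0.98 on the log2 scale, SE; edgeR adjusted p = 0.0684). It passed with DESeq2 and without high fat - high sugar replicate 3, while its log2 fold change was 1.68 without replicate 2 of that diet and did not pass (edgeR adjusted p = 0.0849). H2-Q1 had 68.5, 20.2 and 64.5 CPM, against 41.5, 4.62 and 11.0 CPM on chow, a wide range within chow, with a log2 fold change of 1.42 ± 0.85 (SE; edgeR adjusted p = 0.302). The log2 fold change of H2-Q1 was 2.71 without chow replicate 1 and did not pass (edgeR adjusted p = 0.0720). H2-T24 had 3.51, 6.19 and 3.57 CPM, against 2.67, 2.58 and 1.41 CPM, without overlap, and did not pass (edgeR adjusted p = 0.0901). H2-T23, which encodes Qa-1, the ligand of an inhibitory receptor of NK cells, had 166, 214 and 180.1 CPM, against 229, 169 and 185 CPM, (log2 fold change -0.06 ± 0.17, SE; edgeR adjusted p = 0.847).

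H2-Q10, a class I molecule that mouse hepatocytes secrete, was the member with the lowest log2 fold change. It had 1900.4, 763 and 2237 CPM on the high fat - high sugar diet, against 2810.2, 2418 and 2907 CPM on chow. Every high fat - high sugar library was below every chow library, with replicate 2 far below the rest, and the log2 fold change of -0.73 ± 0.38 (SE) did not pass (edgeR adjusted p = 0.228). It was -0.38 without high fat - high sugar replicate 2, and albumin was also lowest in that library. H2-Q10 made up 50.5%, 27.7% and 52.3% of class I heavy chain counts on the high fat - high sugar diet, against 50.7%, 57.6% and 57.0% on chow. H2-K1 made up 36.2%, 47.9% and 35.1%, against 38.1%, 33.3% and 34.2%, and H2-D1 4.59%, 10.8% and 4.83%, against 4.68%, 3.45% and 3.74%. The diets overlapped in all 3 shares, and high fat - high sugar replicate 2 stood outside the range of the other 5 libraries in each.

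**Figure D5:**
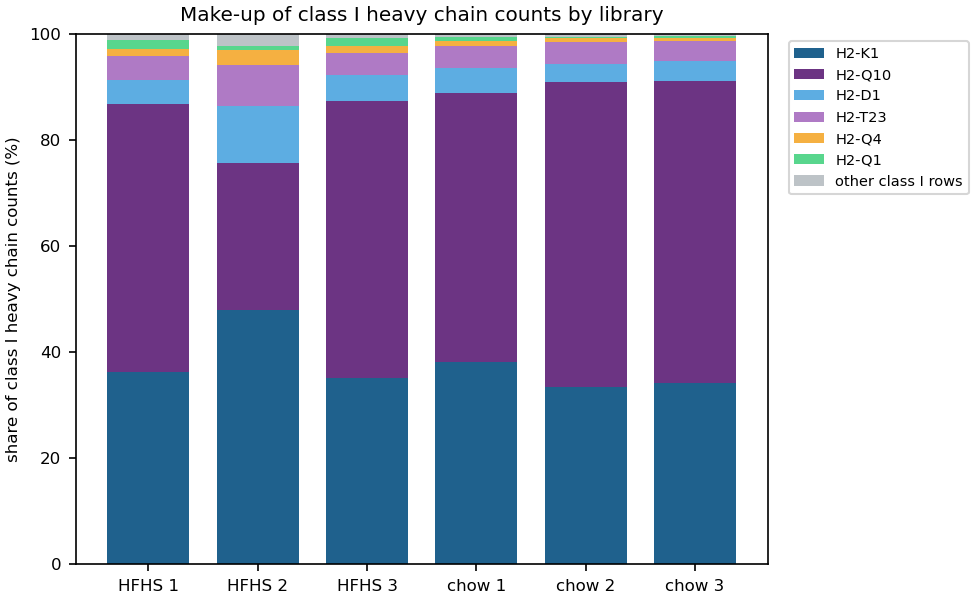
Share in percent of each gene in all class I heavy chain counts, as stacked bars for each high fat - high sugar (HFHS) library and then each chow library. H2-Q10 is 27.7% of the counts in high fat - high sugar replicate 2 and between 50.5% and 57.6% in the other 5 libraries.

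The remaining non-classical genes H2-Q4, H2-Q5, H2-T10, H2-T22, H2-Bl and H2-K2 overlapped between the diets and had log2 fold changes from -0.27 to 0.57. Of these, H2-Q5, H2-T10, H2-Bl and H2-K2 are annotated by RefSeq as transcribed pseudogenes. They are included in the counts of non-classical genes, the class I median and the class I heavy chain totals. Many of these genes are near copies, and the share of 50-base words that a gene has in common with others reached 36.5% in H2-Q5, 34.5% in H2-T22 and 32.9% in H2-T10, so their split of reads is uncertain. By contrast B2m, Cd74, Ciita, H2-Ab1, H2-Eb1 and H2-DMa shared 0% and H2-Aa 0.488%. Of the 17 rows under 10 summed counts, 15 were at 0 in all libraries, namely H2-Ea-ps, H2-Q6, H2-Q7, H2-Q8, H2-Q9, H2-T9 and 9 H2-M genes, and H2-M5 and H2-T3 had 4 and 3 counts. Of the rows at 0, H2-Q6 and H2-Q7 shared 32.0% and 26.4% of their 50-base words with other genes, while H2-M11 and H2-Ea-ps shared 0%. A separate row labelled ambiguous held 0.615% to 0.862% of counts. How reads that align to more than 1 place were treated is not given, and that row need not hold them. The part of such reads in the values of 0 was not tested.

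H2-Ke6, the 1 member that fell and no MHC molecule, had 47.2, 47.5 and 62.3 CPM on the high fat - high sugar diet, against 78.5, 76.6 and 76.9 CPM on chow, a log2 fold change of -0.56 ± 0.13 (SE; edgeR adjusted p = 0.0311). The diets did not overlap, and the call was lost with library-size scaling and without any library other than high fat - high sugar replicate 3. It shares 70.5% of its 50-base words with an overlapping annotated transcript of the gene Gm20427.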

How the data were processed

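Stranded dUTP libraries of polyA RNA were made from frozen liver, per the labels' protocols. Per the submitters' processing notes, reads were aligned with STAR to mm10. How reads were counted (program, annotation, strand) is not given in the sources used here. Raw counts, whole numbers for each gene symbol and library, were deposited by the authors. The rows labelled no feature (7.74% to 10.6% of all counts) and ambiguous (0.615% to 0.862%) stayed out of library sizes and tests.

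Genes passing filterByExpr of edgeR at its minimum count of 10 (12949 of 17877 with a count) were scaled by TMM and tested for diet with edgeR's quasi-likelihood F test, robust, without covariate (edgeR 4.0.16, limma 3.58.1, DESeq2 1.42.0, R 4.3.3), with Benjamini-Hochberg adjustment over all tested genes at 0.05. The fits were run on simulated data in which only well-counted genes were changed, so changes in genes of few counts were not covered. CPM uses TMM-scaled library sizes, and the SE is |log2 fold change| over √F. Levels per kilobase and shared 50-base words use GENCODE vM21 transcripts, and spans RefSeq GRCm38.p6. Floors of 3 counts cover counting error only.

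The labels name samples and not animals, so p-values reflect the spread among these samples, which may be technical. No library was a copy of another of its diet (smallest chi-square per gene 23.5). The members and lists were chosen with earlier results of these data known. All members with 10 or more summed counts are accounted for, and of other lists the 3 genes with the smallest p and 11 preset genes are named, except 1 that is not reported here, with others as examples. Alternatives were other scalings, filters and tests, a replicate block and leaving out each library.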

Additional observations from a re-analysis of the deposited data

How the results depend on the processing

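With 3 libraries a diet, the calls depend on the chow libraries. Leaving out 1 library at a time, the number of members that rose ran from 0 to 11, of class II members from 0 to 8, of class I and pathway members from 0 to 3, of non-classical members from 0 to 3, and of members that fell from 0 to 1. The counts of 0 rises came without chow replicate 2 or 3 (edgeR, with 13 and 12 members higher at an unadjusted p under 0.05, 8 of them class II in each case). DESeq2 and limma-voom on all libraries called 11 and 8 members higher. With no filter on low counts 5 members rose, 2 of them class II. Library-size scaling, whose log2 fold changes ran 0.27 higher at the median gene, kept 10 rises but left 0 falls (edgeR, with 0 lower at an unadjusted p under 0.05). RLE and upper-quartile scaling and a filter of 10 summed counts gave 10 rises and 1 fall each. The class II to class I ratio on the high fat - high sugar diet averaged 0.134, and 0.0672 to 0.171 with 1 library of that diet left out. Total exon length in place of the longest transcript gave 189 and 87.3 CPM per kilobase for Cd74 and H2-D1, taken from GENCODE since no RefSeq exon lengths were used here.

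The counts gave no sign that replicate numbers pair the samples. Libraries of the same number had correlations of -0.25, -0.17 and 0.03 between their deviations, and 0 of the 6 correlated best with its own number. With 3 libraries a diet such a check cannot exclude pairing. With the replicate block 3 members rose, 0 of them class II, and 0 fell (7.42% and 2.18% of all tested genes; edgeR, with 15 higher and 2 lower at an unadjusted p under 0.05, 8 class II among the higher).

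Members near 0 changed sign, none of them called. Under upper-quartile scaling H2-T22 was at 0.073, H2-T23 at 0.033 and Tapbp at 0.035. Under library-size scaling B2m was at 0.12, H2-T22 at 0.27, H2-T23 at 0.23 and Tapbp at 0.24. With 1 library left out, H2-T22 ran from -0.16 to 0.052, H2-T23 from -0.16 to 0.069, Tapbp from -0.24 to 0.053 and H2-D1 from -0.055 to 0.41. The cause was not tested. Depth limits H2-L, H2-Oa, H2-Eb2, H2-DMb2 and the chow level of H2-M2 and H2-Q2.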
